A study of Rattus norvegicus with 183 samples.

Results

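Chrna6 and Chrnb3 encode the alpha6 and beta3 subunits of neuronal nicotinic acetylcholine receptors. They were chosen by name as neighbouring genes on rat chromosome 16, and are 2 of the 38354 genes listed for the posterior ventral tegmental area of outbred heterogeneous stock rats. Chrna6 is listed at position 71400615 and Chrnb3 at position 71454225, 53.6 kb apart, in a genome build that no label or header used here names. PolyA RNA was sequenced from 152 libraries, of which 63 carry a purely decimal animal identifier, 88 a hexadecimal identifier and 1 another form. The labels name no treatment, genotype, age or batch, so the form of the identifier is the only label that divides the libraries. What it stands for is not stated, and nothing says whether each library came from a separate animal, so p-values measure only the spread between these libraries. A further 31 samples are labelled as removed and were not used, and 17 of the labels in use record a changed identifier.

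Nicotinic receptors are cation channels built of several subunits and opened by acetylcholine and by nicotine. The alpha6 subunit forms part of the ligand-binding face. The beta3 subunit is an accessory subunit that does not bind agonist by itself and joins alpha6, alpha4 and beta2 subunits in the same receptor. In the midbrain both subunits are known from dopamine neurons, where such receptors sit on the cell bodies and on the axon terminals that release dopamine.

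Levels are given as CPM, estimated counts per 1000000 estimated counts of the library. Library totals ran from 15159892 to 57159153 estimated counts. Dopamine neuron RNA was present in most but not all libraries. Th, the rate-limiting enzyme of dopamine synthesis, stood at 577.2 CPM or more in 141 libraries (53 decimal, 87 hexadecimal and 1 other) and at 3.47 CPM or less in the other 11 (10 decimal and 1 hexadecimal). The 11 libraries go against their tissue label in their markers. Their summed level of 5 cortical neuron genes was 2297 to 2551 CPM, against 4.91 to 1140 CPM in the 141. All relations below were therefore computed over the 141 libraries with Th of 10 CPM or more, and the 11 enter only as levels.

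Chrna6 was at 17.3 CPM in the lowest, 129.3 CPM in the median and 233.7 CPM in the highest of the 141 libraries. In libraries with decimal identifiers it ran from 55.2 through a median of 129.3 to 202.0 CPM, and in those with hexadecimal identifiers from 17.3 through 131.8 to 233.7 CPM. The ranges of the 2 formats overlap, and the low end belongs to hexadecimal libraries, 2 of which lie at 17.3 and 24.5 CPM. In 10 of the 11 libraries without Th, Chrna6 was at 0, and the other held 1 estimated count (0.0422 CPM). A count of 0 there allows up to 0.0646 to 0.167 CPM, taking 3 counts as the limit and covering counting error only. The levels with and without Th do not overlap.

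Chrnb3 was at 63.1 CPM in the lowest, 248.2 CPM in the median and 473.4 CPM in the highest of the 141 libraries. Decimal libraries ran from 63.1 through 254.7 to 462.2 CPM, and hexadecimal libraries from 79.2 through 223.9 to 473.4 CPM. Unlike Chrna6, Chrnb3 reached 0 in none of the 11 libraries without Th. It stood there at 0.112 to 1.44 CPM, with up to 35.1 estimated counts, and 1 of the 11 held 3 counts or fewer. These levels also do not overlap with those of the libraries with Th. The 2 genes were not set against each other in level, because CPM does not correct for transcript length.

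Both genes varied more between libraries than most. The SD of log2(CPM + 1) was 0.64 for Chrna6 and 0.64 for Chrnb3 (n = 141), against a median SD of 0.26 over the 15536 genes whose mean log2(CPM + 1) was 1 or more. For either gene, 94.8% of these genes had a lower SD. For comparison, the SD was 0.53 for Th, 0.89 for Slc6a3, the plasma membrane dopamine transporter, and 0.47 for Slc18a2, the vesicular monoamine transporter. In bulk RNA such as this, fewer dopamine neurons in a dissection and less RNA per neuron cannot be told apart.

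**Figure D1:**
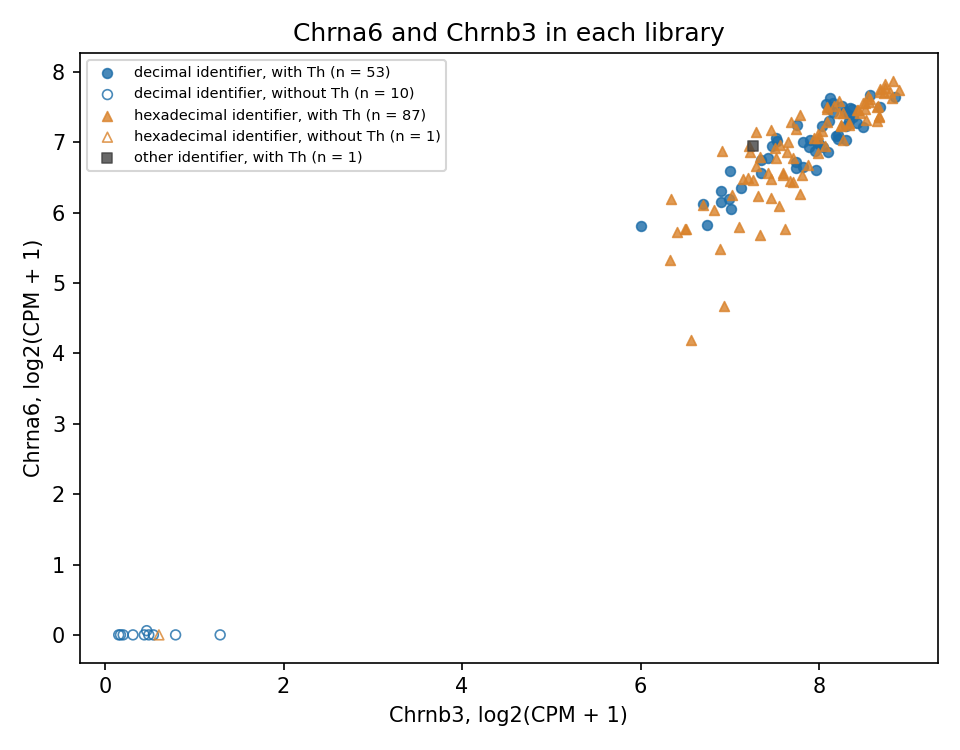
Each point is 1 of 152 libraries, with Chrnb3 on the x axis and Chrna6 on the y axis, both as log2(CPM + 1); filled symbols are the 141 libraries with Th, open symbols the 11 without, and colour and shape give the identifier format. The 11 libraries without Th lie at the bottom left with Chrna6 at or near 0, and the hexadecimal libraries at 17.3 and 24.5 CPM of Chrna6 lie below the band of the others.

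Chrna6 and Chrnb3 rose and fell together across libraries. Pearson's r of their log2(CPM + 1) was 0.851 (95% interval 0.798 to 0.891) and Spearman's rho 0.886 over 141 libraries, each with a two-sided permutation p of 1e-05, the smallest that 100000 resamples can give. Adjusted over the 29 relations of this kind computed over all 141 libraries, p was 2.23e-05 for r. The relation held in each format, with r of 0.894 in 53 decimal and 0.849 in 87 hexadecimal libraries, and r was 0.873 once the 2 libraries most distant from the median Chrna6 level were left out. In a limma fit across all genes with identifier format as a covariate (n = 140, leaving out the library of the other format), Chrnb3 rose by 0.55 ± 0.028 (SE) on the log2 scale per SD of Chrna6 (adjusted p = 1.07e-38).

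The pair was not the closest among dopamine neuron genes. Of the 210 pairs among 21 genes (both subunits and the genes for dopamine synthesis, transcription factors and receptors), the correlation of Chrna6 with Chrnb3 was the 38th largest, where the median r was 0.687. The 1st was Chrna6 with Slc6a3, at r = 0.957. Chrnb3 was the 20th of 15535 genes by r with Chrna6, and Chrna6 was the 30th by r with Chrnb3.

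Of the 15535 other genes tested, the dopamine transporter gene Slc6a3 had the largest correlation with Chrna6. Slc6a3 ran from 38.2 through a median of 774.4 to 1491 CPM, and its correlation with Chrna6 (r = 0.957, rho = 0.960, permutation p = 1e-05 for each) was nearly the same in the decimal (r = 0.959) and hexadecimal libraries (r = 0.962). It was 0.945 with the same 2 libraries left out. Slc6a3 alone accounted for 91.5% of the variance of Chrna6, leaving a residual SD of 0.19 on the log2 scale. The library lowest in Slc6a3 was also lowest in Chrna6, and the library highest in Slc6a3 (hexadecimal replicate 69, with 1491 CPM) had the highest Chrna6, at 233.7 CPM. By r, Chrnb3 followed Slc6a3 less closely, at 0.807 over all 141 libraries, 0.936 in decimal and 0.798 in hexadecimal libraries. Slc6a3 accounted for 65.1% of the variance of Chrnb3. By rank the relation was closer than that r, with rho of 0.915 over all libraries, 0.902 in decimal and 0.897 in hexadecimal ones.

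The relation of both subunits to Th depended on the identifier format. Over all 141 libraries r with Th was 0.326 for Chrna6 (rho = 0.393) and 0.457 for Chrnb3 (rho = 0.387). In decimal libraries Th correlated with Chrna6 at r = 0.908 and with Chrnb3 at r = 0.854. In hexadecimal libraries the values were 0.171 and 0.326. Th and Slc6a3 themselves correlated at 0.912 in decimal and at -0.0338 in hexadecimal libraries. The difference between formats in the slope on Th, a comparison chosen after the data were seen, was -0.34 ± 0.11 on the log2 scale per SD of Th for Chrna6 (limma adjusted p = 0.0327) and -0.31 ± 0.10 for Chrnb3 (adjusted p = 0.0377), with 10.7% of all genes called in that fit. Without the 5 hexadecimal libraries lowest in Slc6a3 (replicates 4, 7, 43, 75 and 76) the differences were -0.24 (adjusted p = 0.0885) and -0.25 (adjusted p = 0.111). With the first principal component of all other genes as a covariate they were -0.10 (adjusted p = 0.578) and -0.067 (adjusted p = 0.661), and without relabelled libraries the difference for Chrnb3 was -0.31 (adjusted p = 0.0605), so neither call held under every setting tried. The slopes on Slc6a3 also differed, by -0.16 ± 0.044 for Chrna6 (adjusted p = 0.00388) and by -0.43 ± 0.085 for Chrnb3 (adjusted p = 3.99e-05), with 33.4% of all genes called, the rise per SD of Slc6a3 being steeper in decimal libraries. The slope of Chrnb3 on Chrna6 differed by -0.19 ± 0.069 (adjusted p = 0.0253), with 34.4% of all genes called. The differences on Slc6a3 and Chrna6 under the settings tried for Th are not reported here. Their predictors also span unlike ranges, Slc6a3 starting at 246.2 CPM in decimal and at 38.2 CPM in hexadecimal libraries.

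**Figure D2:**
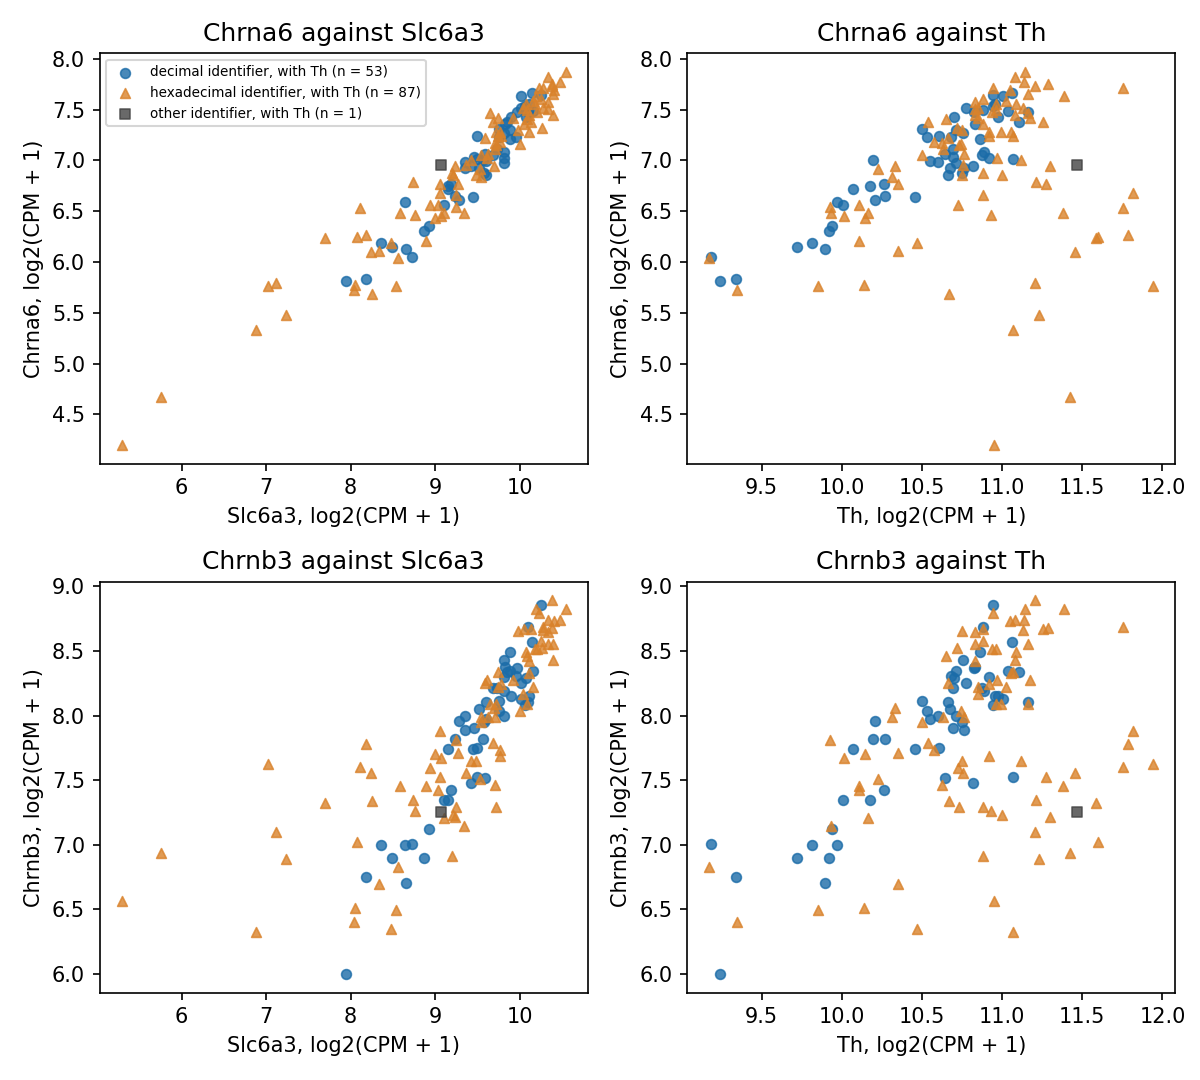
Chrna6 (top) and Chrnb3 (bottom) are plotted against Slc6a3 (left) and Th (right) as log2(CPM + 1), with 1 point per library with Th (n = 141) and colour and shape for the identifier format. Against Slc6a3 the Chrna6 points of both formats lie in 1 narrow band (r = 0.957), with a steeper slope in decimal libraries, while against Th a set of hexadecimal libraries lies below the decimal ones at high Th.

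The hexadecimal libraries below the line against Th can be read one by one. Hexadecimal replicate 7 had the lowest Chrna6 (17.3 CPM) and the lowest Slc6a3 (38.2 CPM), yet Th at 1977 CPM, above the median of 1820 CPM. Hexadecimal replicate 76 had Chrna6 at 24.5 and Slc6a3 at 53.2 CPM with Th at 2751 CPM. Hexadecimal replicate 75 had Chrna6 at 53.2 and Slc6a3 at 128.6 CPM with Th at 3934 CPM, the highest of all. Chrnb3 in the same 3 libraries was 93.5, 121.6 and 196.0 CPM, placing it 7th, 16th and 50th from the lowest of 141, where Chrna6 was 1st, 2nd and 7th.

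Other values moved with these libraries. The first principal component of all tested genes other than the 2 subunits, which holds 31.9% of their variance, ranked the same 3 libraries 1st, 3rd and 5th. Over all 141 libraries it correlated with Chrna6 at r = -0.606 (decimal -0.187, hexadecimal -0.693) and with Chrnb3 at -0.569 (decimal -0.292, hexadecimal -0.667), with rho of -0.474 and -0.533 and a permutation p of 1e-05 for each. Its r with Slc6a3 was -0.705 (decimal -0.206, hexadecimal -0.773), and with Th it was 0.318 (decimal -0.0966, hexadecimal 0.363). Its part in the results was not tested beyond the fits that carry it as a covariate. The library total correlated with Chrna6 at 0.0263 and with Chrnb3 at 0.0349.

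Together, Slc6a3 and Th accounted for 95.6% of the variance of Chrna6 and for 77.7% of that of Chrnb3, where Th alone accounted for 10.6% and 20.9%. What remained of the 2 subunits after both genes were taken out was not detectably related. The partial r of Chrna6 and Chrnb3 was 0.835 at equal Th, 0.459 at equal Slc6a3 (decimal -0.0358, hexadecimal 0.493), and 0.0726 at equal Slc6a3 and Th (95% interval -0.0950 to 0.236, permutation p = 0.392). The last value was -0.0399 in decimal and 0.108 in hexadecimal libraries. In the limma fit at equal Slc6a3, Chrnb3 rose by 0.61 ± 0.099 per SD of Chrna6 (adjusted p = 1.17e-07), where 19.8% of all genes rose and 26.0% fell. The SD is that of Chrna6 over all libraries of the fit. With r = 0.957 between Chrna6 and Slc6a3, little of it remains at equal Slc6a3. The size of this slope therefore cannot be set beside the 0.55 found without Slc6a3 in the fit. These partial correlations were chosen after the data were seen, and the interval still allows a weak relation.

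A wider measure of dopamine neuron RNA, the mean z-score of 15 genes (Th, Ddc, Gch1, Slc18a2, Slc6a3, Slc10a4, En1, En2, Pitx3, Nr4a2, Foxa1, Lmx1a, Lmx1b, Drd2 and Ret), gave slopes for both subunits. Per SD of this dopamine score, Chrna6 rose by 0.49 ± 0.036 on the log2 scale (limma adjusted p = 9.96e-26) and Chrnb3 by 0.53 ± 0.031 (adjusted p = 1.06e-33), in a fit that called 19.6% of all genes positive and 15.3% negative. Pearson's r with the score was 0.745 for Chrna6 and 0.810 for Chrnb3. The difference between formats in these slopes was 0.092 ± 0.073 for Chrna6 (adjusted p = 0.584) and 0.053 ± 0.064 for Chrnb3 (adjusted p = 0.724), where 0.00644% of genes were called. At equal dopamine score Chrnb3 still rose by 0.35 ± 0.038 per SD of Chrna6 (adjusted p = 2.30e-15), in a fit that called 52.7% of genes positive. With the first principal component as a further covariate that slope was 0.096 (adjusted p = 0.0718). The partial r at equal score fell from 0.632 to 0.163 (permutation p = 0.0546), where rho was 0.187 (permutation p = 0.0274, adjusted p = 0.0395). The fall was not alike in the 2 formats. Adding the component took the partial r from 0.473 to 0.429 in decimal libraries and from 0.657 to 0.0737 in hexadecimal ones.

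Many genes tracked the subunits, and counts of listed genes need to be read against that. In the fit on Chrna6, 47.2% of 15535 genes rose and 22.6% fell, and in the fit on Chrnb3, 44.4% rose and 24.0% fell. The median slope over all genes was 0.035 and 0.029 on the log2 scale per SD. The excess of rising genes depends on the scaling: with median-of-ratios size factors in place of CPM, 33.1% rose and 32.5% fell with Chrna6 and 32.5% rose and 32.7% fell with Chrnb3, with median slopes of 0.0016 and 0.00019. Under that scaling the dopamine gene lists below kept their counts with both subunits, and listed genes whose call differed are named where they are described.

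All 6 genes of dopamine synthesis and transport rose with each subunit, with a median slope of 0.33 for Chrna6 and 0.37 for Chrnb3. After Slc6a3, the largest r of these with Chrna6 belonged to Gch1, which makes the cofactor of tyrosine hydroxylase (r = 0.848 with Chrna6, 0.808 with Chrnb3), and Slc18a2 (0.797 and 0.849). Ddc, the decarboxylase that forms dopamine, correlated at 0.522 and 0.618, and Slc10a4, a vesicular transporter relative, at 0.551 and 0.624. For Ddc and Slc10a4, as for Th, r with Chrna6 was higher in decimal libraries (0.846 and 0.893) than in hexadecimal ones (0.448 and 0.488), and this difference in r was not itself tested.

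All 8 transcription factors of the dopamine lineage rose with each subunit, with a median slope of 0.23 for Chrna6 and 0.27 for Chrnb3. They spread widely. Lmx1b, a LIM homeodomain factor, stood at r = 0.878 with Chrna6 and 0.896 with Chrnb3, Nr4a2 (Nurr1) at 0.789 and 0.827, and Lmx1a at 0.736 and 0.733. Pitx3, needed for the survival of midbrain dopamine neurons, stood at 0.398 and 0.499 (decimal 0.855 and 0.772, hexadecimal 0.274 and 0.402). En1, an engrailed homeobox gene, was the lowest, at 0.181 and 0.364, and in hexadecimal libraries its r with Chrna6 was 0.0294 against 0.723 in decimal ones.

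All 5 receptor genes of dopamine neurons rose with each subunit, with median slopes of 0.40 and 0.43. Gfra1 and Ret, the binding and signalling parts of the receptor for glial cell line-derived neurotrophic factor, had the largest r with Chrnb3 of all genes tested, at 0.930 and 0.916, and stood at 0.894 and 0.850 with Chrna6. Ntsr1, the neurotensin receptor, stood at 0.810 with Chrna6 and 0.882 with Chrnb3, and Chrm5, the muscarinic receptor of dopamine neurons, at 0.817 and 0.717. Drd2, the dopamine autoreceptor, stood at 0.512 and 0.588 over all libraries and at 0.911 and 0.832 in decimal ones.

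Genes that divide dopamine neurons into subtypes mostly rose as well: 10 of 12 rose with Chrna6 and 10 of 12 with Chrnb3, none fell, and the median slopes were 0.31 and 0.33. Of all genes, 47.2% rose and 22.6% fell with Chrna6, and 44.4% rose and 24.0% fell with Chrnb3. Ndnf, a secreted factor, was the closest (r = 0.855 and 0.881), followed with Chrna6 by Tacr3, the neurokinin B receptor (0.809 and 0.699), and Aldh1a1, the retinaldehyde dehydrogenase of ventral dopamine neurons (0.773 and 0.791). Calb1, the calcium buffer calbindin, stood at 0.639 and 0.682. Otx2, a factor of ventral tegmental dopamine neurons, stood at 0.275 and 0.352. The genes that did not pass were Vip (slope 0.082 on Chrna6, adjusted p = 0.218) and Slc17a6, the vesicular glutamate transporter of subcortical neurons (-0.060, adjusted p = 0.293).

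By the size of r over all 141 libraries, the 10 genes most like Chrna6 were Slc6a3, Gpr161, Gfra1, Trpc6, Ankrd34b, Sdc2, Prima1, Lmx1b, Cntnap4 and Tub, with r from 0.957 down to 0.872. Gpr161, a receptor of primary cilia, came next at 0.908, Trpc6, a cation channel, at 0.894, and Prima1, which anchors acetylcholinesterase in the membrane, at 0.879. The 10 most like Chrnb3 were Gfra1, Ret, Erc2, Kcnd3, Cntnap4, Lmx1b, Gpr161, Amotl1, Drp2 and Tub, with r from 0.930 down to 0.883. Erc2, a protein of the presynaptic active zone, stood at 0.905, and Kcnd3, a potassium channel of the A type, at 0.904. The 2 lists share 5 genes (Cntnap4, Gfra1, Gpr161, Lmx1b and Tub), 50% of each, and the top 50 lists share 27, or 54% of each. Slc6a3, the 1st for Chrna6, was the 67th for Chrnb3 by r (r = 0.807), though its rho with Chrnb3 was 0.915.

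At the other end, the most negative r with Chrna6 belonged to Cdk2ap1 (-0.758), Rtn4r, the Nogo receptor (-0.734), Nfyc (-0.727), Scrt2 (-0.723) and Atp1b2, a beta subunit of the sodium pump (-0.705). With Chrnb3 they included Clec2l (-0.736), Cdk16 (-0.726), Rtn4r (-0.719) and Ldhb (-0.703). Each of these was more negative in hexadecimal than in decimal libraries, for example -0.801 against -0.521 for Rtn4r with Chrna6. At equal dopamine score the largest positive slopes on Chrna6 were those of Lrrc58 (1.42 on the log2 scale per SD, adjusted p = 1.31e-32), Dzank1 (1.40) and Mtmr9 (1.37), and on Chrnb3 those of the pseudogene Rps14-ps7 (1.71, adjusted p = 2.87e-09) and of Sv2c, a synaptic vesicle protein, and Lrrc58, which followed it.

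**Figure D3:**
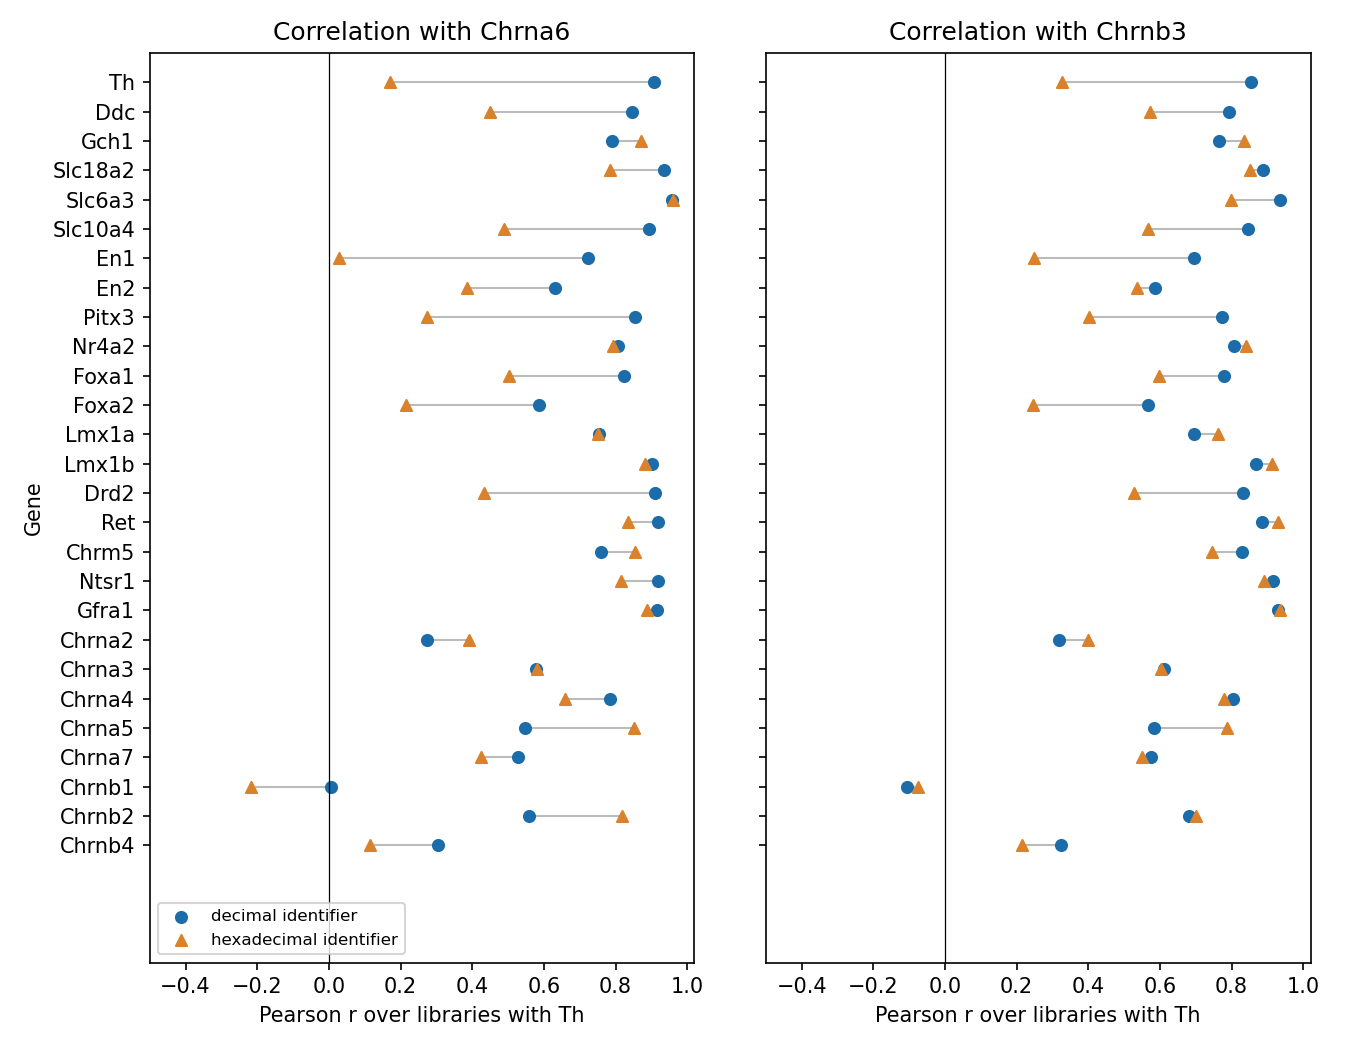
Pearson's r of each listed gene with Chrna6 (left) and with Chrnb3 (right) over libraries with Th is shown separately for decimal (circles, n = 53) and hexadecimal identifiers (triangles, n = 87), joined by a grey line. Slc6a3, Nr4a2, Lmx1b and Gfra1 keep nearly the same r with Chrna6 in both formats, whereas Th, En1, Pitx3 and Drd2 lie far apart.

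Of the 14 other nicotinic subunit genes listed, 8 passed the filter on low values. Chrna1, Chrna9, Chrna10, Chrnd, Chrne and Chrng did not. Of the 8, 6 rose and none fell with Chrna6, where 47.2% of all genes rose and 22.6% fell. With Chrnb3, 7 rose and none fell, where 44.4% of all genes rose and 24.0% fell. The median slopes were 0.25 and 0.31. The subunits that join alpha6 and beta3 in known receptors were among the closest. Chrnb2, the partner beta subunit, correlated at 0.754 with Chrna6 and at 0.637 with Chrnb3. Chrna4 correlated at 0.668 and 0.775, and Chrna5, another accessory subunit, at 0.788 and 0.719. The slope of Chrna4 was 0.17 ± 0.016 per SD of Chrna6, against 0.62 ± 0.040 for Chrna5 and 0.58 ± 0.041 for Chrnb2. All of these slopes differed between formats, in a comparison chosen after the data were seen that called 34.4% of all genes. Hexadecimal minus decimal was 0.46 ± 0.094 for Chrnb2 (limma adjusted p = 7.10e-05), 0.27 ± 0.097 for Chrna5 (adjusted p = 0.0209) and -0.16 ± 0.037 for Chrna4 (adjusted p = 0.000493). The other subunits of the 8 did not pass in that fit.

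The other subunits were more loosely related. Chrna3 stood at r = 0.567 with Chrna6 and 0.593 with Chrnb3, Chrna7, which forms receptors by itself, at 0.442 and 0.551, and Chrna2 at 0.364 and 0.370. Chrnb4 rose with Chrnb3 (slope 0.28 ± 0.091, adjusted p = 0.00441) and had a slope of 0.19 ± 0.093 on Chrna6 (adjusted p = 0.0650). Chrnb1, the muscle-type beta subunit, had slopes of -0.035 and -0.019 (adjusted p = 0.0860 and 0.371). At equal dopamine score 4 of the 8 rose and 1 fell with Chrna6, where 52.7% and 22.4% of all genes did, and 5 rose and none fell with Chrnb3, where 50.6% and 24.9% did. Chrnb2 (0.95 ± 0.049) and Chrna5 (0.73 ± 0.061) had positive slopes on Chrna6 in that fit, and Chrna7 did not pass (0.00092, adjusted p = 0.970). At equal Slc6a3 the same subunits differed: Chrnb2 fell with Chrna6 (-0.67 ± 0.091, adjusted p = 8.75e-10), Chrna5 did not pass (0.0080, adjusted p = 0.965), and Chrna4 rose (0.23 ± 0.055, adjusted p = 0.000282). These slopes are per full SD of Chrna6, which varies little at equal Slc6a3, so their sizes cannot be set beside those of the other fits. Under median-of-ratios scaling Chrnb1 fell with Chrna6 (-0.058, adjusted p = 0.00616), and at equal dopamine score 3 rose and 2 fell with Chrna6 and 4 rose and 1 fell with Chrnb3, Chrna4 no longer passing with Chrna6 (0.014, adjusted p = 0.563) nor Chrna3 with Chrnb3 (adjusted p = 0.0513).

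Genes known to help nicotinic receptors assemble, reach the surface or gate were mixed. Of 11, 4 rose, 2 fell and 5 did not pass with Chrna6, where 47.2% of all genes rose and 22.6% fell. With Chrnb3, 5 rose, 3 fell and 3 did not pass, where 44.4% of all genes rose and 24.0% fell. The median slopes were 0.042 and 0.054, against 0.035 and 0.029 over all genes, so the list lay near all genes. Ric3, a chaperone of nicotinic subunits, rose (r = 0.573 and 0.499), as did Lypd1, a membrane-anchored modulator of the Ly6 family (0.518 and 0.512). Ern1, Cbarp, Lamp5 and Sult2b1 are known from cell culture work as factors that raise receptors containing alpha6. Of these, Ern1 rose with both subunits (0.524 and 0.618), and Cbarp rose with small slopes (0.042 and 0.054). Lamp5 fell with both (-0.37 ± 0.045 per SD of Chrna6, adjusted p = 1.01e-12), and Sult2b1 did not pass (-0.043, adjusted p = 0.0844). Tmem35a, the chaperone NACHO, fell slightly with Chrna6 (-0.040 ± 0.019, adjusted p = 0.0486), with r of 0.421 in decimal and -0.339 in hexadecimal libraries. Under median-of-ratios scaling 3 rose and 4 fell with Chrna6 and 4 rose and 5 fell with Chrnb3: Cbarp did not pass with either (0.011 and 0.031, adjusted p = 0.512 and 0.0581), Sult2b1 fell with both (-0.060 and -0.056), Lynx1 fell with Chrna6 (-0.063) and Lypd6b with Chrnb3 (-0.095).

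Markers of other cells that the dissection could hold moved in both directions with the subunits. The counts stand beside 47.2% of all genes that rose and 22.6% that fell with Chrna6. With Chrnb3 the shares were 44.4% and 24.0%. All 3 astrocyte genes rose with each (Slc1a3, r = 0.556 with Chrna6), but in decimal libraries Slc1a3 stood at -0.0386 and in hexadecimal ones at 0.699. Among oligodendrocyte genes, the myelin genes Mbp (r = -0.351 and -0.445) and Mog (-0.313 and -0.411) fell with both subunits, and Mobp did not pass with either (0.0740 and -0.0813). Of 3 serotonin neuron genes, the 2 that passed the filter, Tph2 and Slc6a4, which make and take up serotonin, fell with both (-0.285 and -0.307 with Chrna6), at a summed level of the serotonin list from 0.197 to 254.3 CPM. Of 5 cortical neuron genes, 3 fell, 1 rose and 1 did not pass with each subunit. Of the GABA neuron genes, Gad2 rose with Chrna6 (r = 0.628), while Gad1 (0.0223) and Slc32a1 (0.0565) did not pass. Of 3 glutamate neuron genes none rose, 1 fell and 2 did not pass with each subunit. Of 3 microglia genes 1 rose with Chrna6 and none with Chrnb3, and no cholinergic neuron gene passed with either. Under median-of-ratios scaling the astrocyte gene Gja1 did not pass with Chrna6 or Chrnb3 (adjusted p = 0.315 and 0.218), nor did the microglia gene Cx3cr1 with Chrna6 (adjusted p = 0.324). Of the 4 tested habenular and interpeduncular genes, which include Chrna2, Chrna3 and Chrnb4, 2 rose and 1 fell with Chrna6 and 3 rose with Chrnb3. No noradrenergic gene passed the filter, their summed level being at most 3.99 CPM. The part of these cells in the relations was not tested.

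The ratio of the subunits varied between libraries. The log2 ratio of Chrna6 to Chrnb3 is used only to compare libraries, since its absolute value depends on gene length. It ran from -2.37 (hexadecimal replicate 7) through a median of -0.94 to -0.037 (hexadecimal replicate 51), with an SD of 0.35 (n = 141). Decimal libraries had an SD of 0.26 and hexadecimal ones 0.39. The 3 lowest ratios, -2.37, -2.26 and -1.86, belonged to hexadecimal replicates 7, 76 and 75, which are also 3 of the 5 libraries lowest in Slc6a3.

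The ratio had no relation to the dopamine score that passed the test on r (r = -0.119, 95% interval -0.279 to 0.0468, permutation p = 0.157, adjusted p = 0.207), while its rho was -0.187 (permutation p = 0.0269, adjusted p = 0.0395). That r was -0.205 without the 2 libraries of the lowest ratio, and -0.201 (permutation p = 0.0187) without the 5 libraries lowest in Slc6a3, so the outcome of the test depends on those libraries. Against Slc6a3 the ratio had r = 0.274 (permutation p = 0.00137, adjusted p = 0.00248) and rho = -0.0811. Without the 2 libraries of the lowest ratio that r was 0.0315, so the relation rests on those libraries. Over all libraries of a format, r against Slc6a3 was -0.321 in decimal and 0.401 in hexadecimal ones, with rho of -0.216 and 0.0339. Without the 2 libraries farthest from the median ratio of each format, r was -0.149 and 0.142. Against Th the ratio had r = -0.240 (permutation p = 0.00436, adjusted p = 0.00744). It was -0.233 in decimal (permutation p = 0.0928) and -0.251 in hexadecimal libraries (permutation p = 0.0195). Without the 2 libraries farthest from the median ratio of each set, r was -0.220 over all libraries, -0.0706 in decimal and -0.237 in hexadecimal ones.

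Neither subunit differed detectably in level between identifier formats. Hexadecimal minus decimal was -0.093 ± 0.11 on the log2 scale for Chrna6 (limma adjusted p = 0.532) and -0.018 ± 0.11 for Chrnb3 (adjusted p = 0.915), from 53 and 87 libraries, in a fit that called 38.0% of all genes in either direction.

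The genes around the pair did not share its behaviour as a block. Within 1 Mb of either position the file lists 30 other genes, of which 8 passed the filter, all on the Chrnb3 side between 108.2 and 382.9 kb from Chrna6. The genes nearest to Chrna6 and Chrnb3 (Poteg, Rpl13a-ps8 and Tex24l) had too few counts to be tested. With Chrna6, 4 of the 8 rose, 1 fell and 3 did not pass, where 47.2% of all genes rose and 22.6% fell. With Chrnb3, 5 rose, 2 fell and 1 did not pass, where 44.4% of all genes rose and 24.0% fell. Under median-of-ratios scaling 4 rose and 2 fell with each, Zfp703 falling with Chrna6 (adjusted p = 0.0490) and Eif4ebp1 not passing with Chrnb3 (adjusted p = 0.0964).

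Erlin2, a protein of the endoplasmic reticulum, was the closest of the neighbours, at r = 0.593 with Chrna6 and 0.620 with Chrnb3 and a distance of 336.4 kb from Chrna6. Rab11fip1, an effector of recycling endosomes, stood at 0.447 and 0.548, and Adgra2, an adhesion receptor of brain vessels, at 0.398 and 0.404. Brf2, a transcription factor of RNA polymerase III, fell with both (-0.375 and -0.430). Eif4ebp1, the tested gene nearest to the pair and an inhibitor of translation initiation, had r of 0.103 and 0.217. All 8 lie below the r of 0.851 between the subunits. At equal dopamine score, 4 rose and 3 fell with Chrna6, where 52.7% of all genes rose and 22.4% fell. With Chrnb3 4 rose and 2 fell, where 50.6% and 24.9% of all genes did. With the first principal component as a further covariate, 1 rose and 5 fell with Chrna6. None passed with Chrnb3 in that limma fit, where 2 had an unadjusted p below 0.05. The shares of all genes called with that component at equal score are not reported here.

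**Figure D4:**
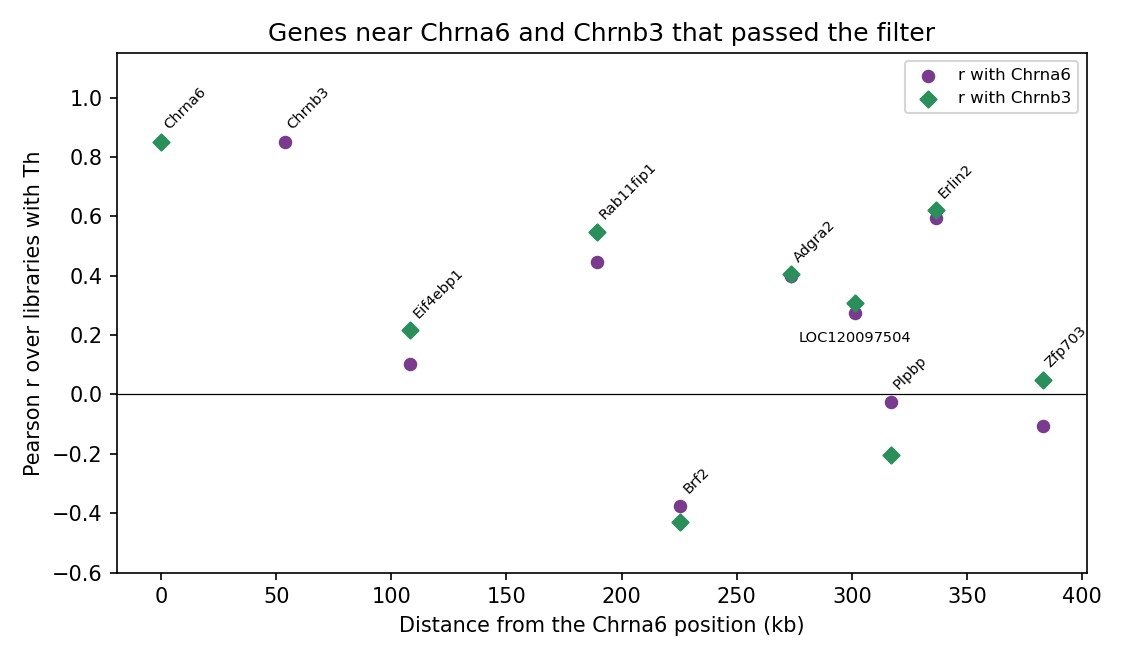
Pearson's r with Chrna6 (circles) and with Chrnb3 (diamonds) over 141 libraries with Th is plotted for each gene within 1 Mb that passed the filter, against its distance in kb from the listed position of Chrna6. The subunits stand at 0.851 with each other, and the 8 neighbours range from Brf2 below 0 to Erlin2 at about 0.6.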

How the data were processed

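Values come from 1 deposited table of 38354 genes by 152 libraries. Per the labels, polyA RNA was sequenced, and per the submitters' processing notes kallisto 0.48 was used. The deposited values are on a log2 scale, read here from the values as log2(estimated count + 1): after back-transformation, 55.7% of those under 100 were whole to within 0.001. Genome build and annotation: not given in the sources used here.

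The values were turned back into estimated counts, divided by the library total (15159892 to 57159153) to give CPM, and taken as log2(CPM + 1). A fold on this scale understates the change of low genes. Genes with a mean log2(CPM + 1) of 1 or more over all 152 libraries were tested (15536). Fits used limma 3.58.1 in R 4.3.3 on libraries with Th of 10 CPM or more, with identifier format as a covariate, Benjamini-Hochberg adjustment over all genes and a threshold of 0.05. Slopes are per SD of the predictor, ± SE. Correlations used two-sided permutation tests of 100000 resamples, and intervals of r are Fisher intervals of 95%. No count test was run. On simulated data for the slope on the dopamine score over 15536 genes, 66 of 100 genes with a slope of 0.1 and 98 of 100 with 0.3 were recovered, with 8 false calls. The share of false calls in the measured libraries was not tested.

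Named genes are the 2 subunits, the genes of 17 fixed lists (88 names, 87 in the table, 75 past the filter), the 10 most and 5 least like each subunit by r, those with the largest slopes at equal dopamine score, and tested genes within 1 Mb. The members and lists were chosen with earlier results of these data known. The first principal component, the fits without the 5 libraries lowest in Slc6a3, the slopes on Th by format and the correlations at equal Slc6a3 and Th were added after seeing the data. Results for some genes of these lists are not reported here. Alternatives are listed in the closing section.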

Additional observations from a re-analysis of the deposited data

Results flagged for a closer look

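5 relations differed between identifier formats by the limma test of the interaction, in slopes on the log2 scale per SD of the predictor, hexadecimal minus decimal. On Th the difference was -0.34 for Chrna6 (adjusted p = 0.0327) and -0.31 for Chrnb3 (adjusted p = 0.0377), with 10.7% of genes called. On Slc6a3 it was -0.16 for Chrna6 (adjusted p = 0.00388) and -0.43 for Chrnb3 (adjusted p = 3.99e-05), with 33.4% of genes called. For Chrnb3 on Chrna6 it was -0.19 (adjusted p = 0.0253), with 34.4% of genes called. All 5 differences were chosen after the data were seen, and the hexadecimal libraries hold the 5 lowest values of Slc6a3. The differences on Slc6a3 and Chrna6 under other settings are not reported here. What the formats stand for is not stated in the labels.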

How the results depend on the processing

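No paired analysis was possible because replicate numbers were given in accession order within a format and pair no libraries. The mutual correlation of Chrna6 and Chrnb3 kept its direction and call under all 9 alternatives (r 0.773 to 0.894), as did the slopes on the dopamine score under all 13 (0.25 to 0.51 for Chrna6, 0.34 to 0.56 for Chrnb3). Scaling by median-of-ratios, a pseudocount of 0.5 CPM and leaving out libraries with Slc17a7 above 100 CPM were among them. The cause of each change below was not tested.

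With the first principal component as a covariate, the slope of Chrnb3 on Chrna6 at equal score was 0.096 (adjusted p = 0.0718). The same setting gave 6020 genes related to Chrna6 (3031 up, 2989 down, against 10842 with 7338 up and 3504 down) and 5453 to Chrnb3 (2328 up, 3125 down, against 10632 with 6902 up and 3730 down). It gave format differences of 0.096 for Chrna6 and 0.16 for Chrnb3, a difference between formats in the slope of Chrnb3 on the score of -0.014, differences in the slope on Th of -0.10 (Chrna6) and -0.067 (Chrnb3), and 0 nearby genes for Chrnb3 by limma, against 6 for Chrna6 (1 up, 5 down). Under median-of-ratios scaling, 5133 genes rose and 5053 fell with Chrna6 and 5048 rose and 5070 fell with Chrnb3. Without the 5 libraries lowest in Slc6a3, the ratio against the score had r = -0.201 (permutation p = 0.0187), format differences were 0.013 (Chrna6) and 0.038 (Chrnb3), and differences in the slope on Th were -0.24 and -0.25. With Th alone as the score, the ratio had r = -0.240 (permutation p = 0.00436), and the differences between formats in the slope were -0.34 and -0.31. In decimal libraries alone, 2703 genes were related to Chrna6 and 2808 to Chrnb3, with fewer libraries, and r at equal Slc6a3 and Th was -0.0399. The format difference of Chrnb3 was 0.0073 under median-of-ratios scaling, 0.030 without libraries high in Slc17a7 and 7.11e-05 with the library total as a covariate. Without relabelled libraries, the difference of Chrnb3 in the slope on Th was -0.31 (adjusted p = 0.0605). Over all genes with any count, more genes were tested. There, 12 and 10 of 30 nearby genes were called at equal score for Chrna6 and Chrnb3. The shares of all genes called in those fits are not reported here, so these counts cannot be set against them. Each library with Th held 480.0 estimated counts or more of Chrna6.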
